A study of Mus musculus with 24 samples.

Results

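Stage D2 was set against stage D1 in P19 cells, averaged over both ways of growing them. P19 is a mouse embryonal carcinoma line that grows as a pluripotent cell. The series holds 12 RNA samples in 4 groups of 3: monolayer D2, monolayer D1, suspension D2 and suspension D1. What the D stands for is not written in the labels, and no inducer or genotype change is given. The submitters asked how early gene expression differs when these cells aggregate, and their further incubated cultures held skeletal muscle and neurons. All groups are the same line in alpha medium with fetal bovine and calf serum, and the cell purity is given as a pure clonal culture. The difference described is the mean of D2 minus D1 in monolayer and D2 minus D1 in suspension, so 6 D2 samples stand against 6 D1 samples. Each RNA was read on a pair of Affymetrix chips, MOE430A and MOE430B, so all 24 arrays of the series belong to the comparison, 12 from D2 and 12 from D1. The labels do not say whether the samples of a group were separate cultures, so p-values measure the spread between these samples, which may be technical.

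Embryonal carcinoma cells resemble the epiblast of the early embryo and can form derivatives of all germ layers when they aggregate or meet an inducer. Cells short of amino acids, or burdened with unfolded protein in the endoplasmic reticulum (ER), slow translation and make more of the transcription factor ATF4. ATF4 and its partners C/EBP-beta and CHOP then raise genes for amino acid synthesis, uptake and tRNA charging.

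Values are MAS5 signals, a linear intensity per probe set that the authors scaled to the same trimmed mean on every array. Differences are D2 minus D1 on the log2 scale, each with its standard error (SE) from limma. The median signal of an array lay between 510.6 and 636.7 for MOE430A, and between 758.9 and 923.4 for MOE430B. The array files' headers give a wash station and a clock time. Here the arrays were grouped by station and by an earlier or later clock time, without the date, into 3 groups called wash runs. Each holds 1 RNA of every group, with both of its chips. The headers do not themselves name these runs. Station 1 first run held D1 replicate 2 of both cultures, monolayer D2 replicate 2 and suspension D2 replicate 1. On MOE430A, 10 of 12 RNA samples lay nearer to the other samples of their own stage and culture than to the other stage. Monolayer D1 replicate 2 did not: its root mean square log2 distance was 0.461 to D2 and 0.573 to D1. Suspension D1 replicate 3 stood at 0.566 from D2 and 0.586 from D1. On MOE430B, 6 of 12 lay nearer to their own stage. The samples keep their labels throughout. List medians set against the wash run that holds D1 replicate 2 are also given without D1 replicate 2 of both cultures, as are several genes.

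The control probe set for the B1 repeat, a short interspersed element present in many mouse transcripts, was lower at D2 on both chips. On MOE430A its signal was 18185, 9434 and 16826 in monolayer D2 and 15159.9, 7752 and 13829.9 in suspension D2, against 37920.2, 29782 and 37221 in monolayer D1 and 39307, 27953 and 26228 in suspension D1. Every D2 sample lay below every D1 sample. The log2 difference was -1.34 on MOE430A and -1.28 on MOE430B, with an exact p of 0.005 on each, the smallest that 400 arrangements within cultures allow, and an adjusted p of 0.02 over 8 control tests (two-sided permutation). Within the 3 wash runs the MOE430A difference was -1.27, -1.03 and -1.70. The 18S control differed by 0.66 (exact p = 0.165) on MOE430A. The ratio of the 3′ to the 5′ probe set of beta-actin, a measure of RNA integrity and labelling, averaged 1.14 at D2 and 1.17 at D1 on MOE430A (exact p = 0.53) and 1.04 at D2 and 1.16 at D1 on MOE430B (exact p = 0.055). On MOE430B its log2 difference was -0.04 in monolayer and -0.26 in suspension, where all 3 D2 ratios lay below all 3 D1 ratios, and the exact p was 0.025 without monolayer D1 replicate 1 or without monolayer D2 replicate 3. The GAPDH ratio averaged 0.875 at D2 and 0.873 at D1 on MOE430A (exact p = 0.9). The B1 signal, and in suspension the MOE430B beta-actin ratio, move with the stage in all that follows, and their part in the other results was not tested.

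**Figure D1:**
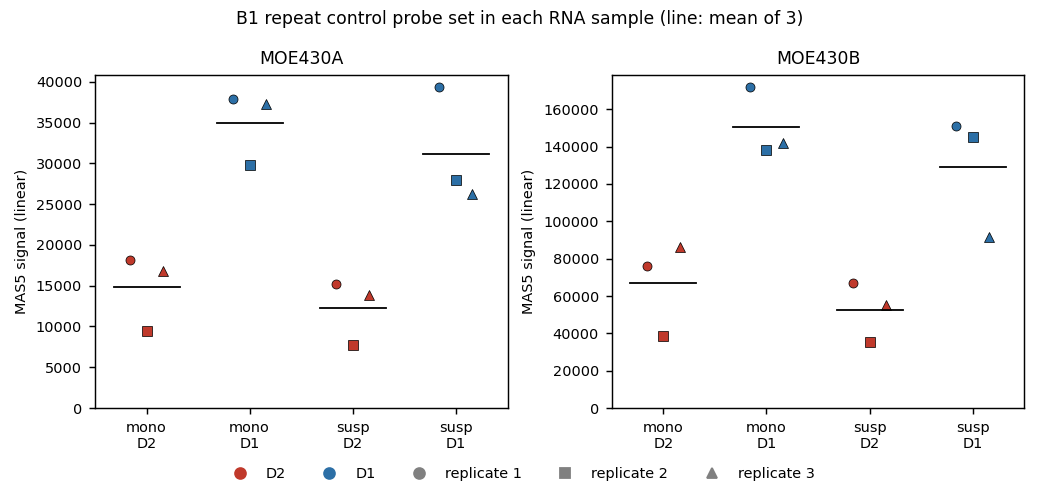
Linear MAS5 signal of the B1 repeat control probe set in each RNA sample, by culture and stage, on MOE430A and MOE430B; points are RNA samples, symbols give the replicate number and lines are means of 3. All 6 D2 samples lie below all 6 D1 samples on both chips.

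No probe set passed the test of the stage difference. In limma, 0 of 26516 probe sets (0%) had an adjusted p under 0.05, and the lowest adjusted p was 0.0894. At an unadjusted p under 0.05 there were 2722 probe sets, 10.3% of those tested, of which 1455 were higher and 1267 lower at D2. The count was also 0 with an offset, without the filter, with a stricter filter, with quantile normalization, with median centring, without the variance trend, with an additive model and without the later wash run. It was 26 (0.0981%) with the wash run as a block and 460 with array weights. Leaving out monolayer D1 replicate 2 gave 509 (1.92%), of which 265 were higher at D2, and leaving out suspension D1 replicate 2 gave 4. Every sample was left out in turn, but monolayer D1 replicate 2 is followed further because its values lay nearer to D2. Leaving out such a D1 sample favours calls, so the counts without it are descriptions and give no support. Leaving out suspension D1 replicate 3 or suspension D2 replicate 1 gave 1 each, and each of the other 8 samples gave 0. Without D1 replicate 2 of both cultures, an alternative chosen after seeing the data, 882 probe sets passed. Of the 26 that passed with the wash block, 23 also passed without monolayer D1 replicate 2.

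The genes below are therefore described by their values, and none is called changed. Each gene is represented by its tested probe set of highest mean, which gave 12727 genes with a median log2 difference of 0.01, and 6645 of them were above 0. With the wash run as a block, 11 genes (0.0864%) passed higher and 6 (0.0471%) lower at D2. Without monolayer D1 replicate 2, 168 genes (1.32%) passed higher and 145 (1.14%) lower. In 51 genes (0.401%) all 6 D2 signals lay above all 6 D1 signals, and in 56 (0.44%) all lay below. Separation of the signals was chosen as a description after the test had called nothing.

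The transcription factors and regulators around ATF4 and CHOP had the highest median of the 44 lists. Cebpb encodes C/EBP-beta, a partner of ATF4. Its signal was 3349.8, 3676 and 2357 in monolayer D2 and 889.0, 2289.7 and 1613 in suspension D2, against 426.6, 998.9 and 577.6 in monolayer D1 and 835.8, 1062 and 432.6 in suspension D1. Suspension D2 replicate 1 lay within the D1 range and the other 5 D2 samples above it. The difference was 1.66 ± 0.28 (adjusted p = 0.0894), and Cebpb passed with the wash run as a block (adjusted p = 0.0461). Its difference was 0.81, 1.96 and 2.21 within station 1 first run, station 1 later run and station 2 first run.

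Ddit3, which encodes CHOP, had signals of 2433, 4637 and 2517 in monolayer D2 and 682.6, 2219.9 and 2176 in suspension D2, against 216.1, 1178 and 485.8 in monolayer D1 and 102.3, 979.0 and 587.6 in suspension D1. D1 replicate 2 had the highest D1 value in each culture, above suspension D2 replicate 1. The difference was 2.28 ± 0.53 (adjusted p = 0.145) and 2.92 without D1 replicate 2 of both cultures. Trib3, a pseudokinase that restrains ATF4 and CHOP, had a median of 3699 at D2 and 1128 at D1, a difference of 1.43 ± 0.32 (adjusted p = 0.133). Atf3, a stress-induced factor of the same family, had signals from 471.9 to 1364 at D2 and from 98.9 to 542.1 at D1, with a difference of 1.63 ± 0.38 (adjusted p = 0.143). All its D1 signals lay below the chip's median, so it passed the filter through D2 arrays alone. Sesn2, an inhibitor of mTORC1 signalling, differed by 0.80 ± 0.15 (adjusted p = 0.12). Chac1, which degrades glutathione, differed by 0.83 ± 0.22 (adjusted p = 0.18), while Atf4 itself, regulated largely at translation, differed by 0.35 ± 0.12 (adjusted p = 0.299).

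Of the 17 measured members of this list, 16 had a difference above 0, with a median of 0.80 against 0.01 over all genes. With the stricter filter, which Atf3 did not pass, the median was 0.68. The median was 0.99 in monolayer and 0.43 in suspension. Within the wash runs it was 0.29, 0.88 and 1.18, and it was 0.97 without D1 replicate 2 of both cultures. The first of these runs holds those samples and also suspension D2 replicate 1. The median over members of log2 signal minus each gene's mean was -0.24 in suspension D2 replicate 1, the lowest D2 sample. One member, Cebpb, passed with the wash block, where 0.0864% of genes passed higher. Without monolayer D1 replicate 2, 7 passed higher and 0 lower, where 1.32% and 1.14% of all genes did. That sample was singled out by its own values, so this count gives the list no support. No member had separate D2 and D1 signals.

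**Figure D2:**
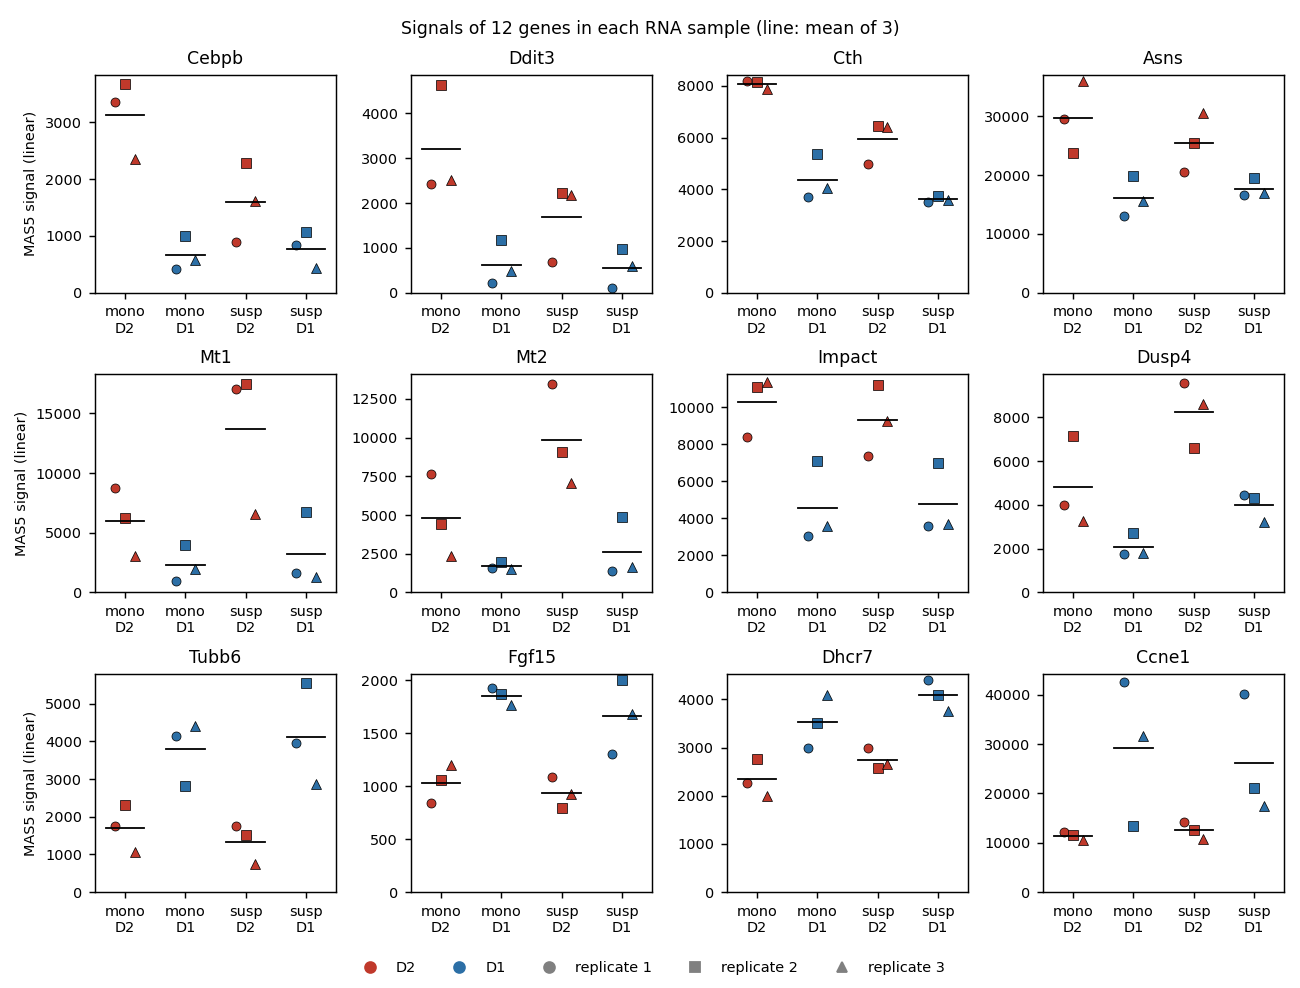
Linear MAS5 signals of 12 genes in each RNA sample, by culture and stage; points are RNA samples, symbols give the replicate number and lines are means of 3. D1 replicate 2 (blue squares) is the highest D1 sample of its culture for Cebpb, Ddit3, Cth, Asns and Impact, while Tubb6, Fgf15 and Dhcr7 are lower in all 6 D2 samples than in any D1 sample.

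Genes for making and charging amino acids were also mostly higher at D2. Cth, which makes cysteine from cystathionine, had signals of 8204, 8134 and 7866 in monolayer D2 and 4966, 6437 and 6419 in suspension D2, against 3700.0, 5369.9 and 4057 in monolayer D1 and 3526, 3753 and 3572 in suspension D1. Within each culture the stages were apart, but suspension D2 replicate 1 lay below monolayer D1 replicate 2. Cth differed by 0.80 ± 0.11 (adjusted p = 0.0894) and passed with the wash block (adjusted p = 0.0369). Asns, asparagine synthetase, had signals of 29461, 23722 and 35925 in monolayer D2 and 20498, 25509.6 and 30554 in suspension D2, against 12979.5, 19885 and 15543 in monolayer D1 and 16597, 19474 and 16904 in suspension D1. All 6 D2 values exceeded all 6 D1 values, and the difference was 0.70 ± 0.14 (adjusted p = 0.123). Aldh1l2, a mitochondrial folate enzyme, differed by 1.19 ± 0.28 (adjusted p = 0.139). Glul, glutamine synthetase, was lower: it ran from 1178 to 1634 at D2 and from 1784 to 2206 at D1, without overlap, a difference of -0.53 ± 0.12 (adjusted p = 0.13). Of 18 measured genes of amino acid and one-carbon synthesis, 14 were above 0 with a median of 0.31. The median was -0.01 within the run that holds D1 replicate 2 and suspension D2 replicate 1. It was 0.45 without D1 replicate 2 of both cultures.

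Among cytosolic tRNA synthetases, which load amino acids onto tRNA, 15 of 22 were above 0 with a median of 0.21. The median was 0.33 in monolayer and 0.02 in suspension. Within the wash runs it was 0.02, 0.28 and 0.28, lowest in the run that holds D1 replicate 2 and suspension D2 replicate 1. It was 0.30 without D1 replicate 2 of both cultures. Cars, for cysteine, ran from 5362 to 7675 at D2 and from 4218 to 5284 at D1, all D2 samples above all D1 samples, a difference of 0.48 ± 0.10 (adjusted p = 0.125). Sars, for serine, differed by 0.73 ± 0.18, Gars, for glycine, by 0.54 ± 0.13 and Nars, for asparagine, by 0.45 ± 0.11, with adjusted p of 0.166, 0.155 and 0.146. Amino acid transporters had 8 of 14 members above 0 and a median of 0.22. Slc7a1, which imports cationic amino acids, had a median signal of 19647 at D2 and 12337 at D1, a difference of 0.64 ± 0.15 (adjusted p = 0.139). Slc1a4 differed by 0.74, Slc6a9 by 0.62 and Slc38a2 by 0.42, all with adjusted p above 0.05.

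ATF4 and C/EBP proteins bind a composite element whose letters are TGATGNAA. It was searched on both strands from 250 bases before to 50 bases after each start in RefSeq's GRCm38.p6 promoters, which were given for 10261 of the 12727 genes. The letters stood in 2.87% of all these genes, in 6 of 16 ATF4 and CHOP regulators, in 5 of 15 tRNA synthetases, in 2 of 10 transporters and in 2 of 16 synthesis genes. A match is a description of letters, not a bound site. The stretches before the start of Asns (chr6:7693210-7693359) and Atf3 (chr1:191183334-191183483), both on the minus strand and chosen after their values were seen, are printed with the match in capitals. It begins 23 bases before the start in Asns and 110 before it in Atf3.
Asns: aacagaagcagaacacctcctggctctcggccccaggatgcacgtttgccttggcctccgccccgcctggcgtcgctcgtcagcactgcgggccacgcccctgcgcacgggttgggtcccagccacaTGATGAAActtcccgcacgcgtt
Atf3: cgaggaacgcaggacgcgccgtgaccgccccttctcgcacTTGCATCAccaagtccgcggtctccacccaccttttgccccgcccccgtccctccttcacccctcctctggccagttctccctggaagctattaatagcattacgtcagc

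Chaperones and folding factors of the ER had a median difference of 0.37, with 29 of 33 measured members above 0. Derl3, a component of ER-associated degradation, ran from 1345 to 5434 at D2 and from 831.6 to 2885 at D1, a difference of 1.13 ± 0.24 (adjusted p = 0.13). Its 3 monolayer D2 signals, 5099, 4824 and 5434, were the highest of the 12. Syvn1, a ubiquitin ligase of the same route, differed by 0.80 ± 0.21 (adjusted p = 0.168). Hsp90b1, an ER chaperone, differed by 0.45 ± 0.10 and Edem1, which marks misfolded glycoproteins, by 0.57 ± 0.14, with adjusted p of 0.13 and 0.158. Hspa5, the chaperone BiP, had probe sets that disagreed: the one of highest mean differed by -0.11 ± 0.13 (adjusted p = 0.837) and the highest of its tested probe sets by 0.41. The list median was 0.60 in monolayer and 0.13 in suspension. None of the 33 passed with the wash block, where 0.0864% of all genes passed higher. Without monolayer D1 replicate 2, 3 passed higher, where 1.32% of all genes did, again a count that gives no support. The ER stress response element, CCAAT followed 9 bases later by CCACG, stood in 9 of 26 promoters of this list and in 0.156% of all genes.

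Lysosome and autophagy genes had 24 of 30 members above 0 and a median of 0.32, which was 0.34 in monolayer and 0.31 in suspension. Within the wash runs it was -0.02, 0.46 and 0.52, so it was near 0 in the run that holds D1 replicate 2, and it was 0.49 without D1 replicate 2 of both cultures. Without monolayer D1 replicate 2, 6 of the 30 passed higher and 0 lower, where 1.32% and 1.14% of all genes did. Here too the count gives no support. Grn, the precursor of granulins, had signals of 8633, 10085 and 9582 in monolayer D2 and 6215, 9278 and 7178 in suspension D2, against 2758, 8451 and 3028 in monolayer D1 and 3514, 6484 and 3861 in suspension D1. Monolayer D1 replicate 2 lay below the 3 monolayer D2 samples but above some suspension D2 samples, and suspension D1 replicate 2 lay above suspension D2 replicate 1. The difference was 0.97 ± 0.25 (adjusted p = 0.168), and 1.36 without D1 replicate 2 of both cultures. Gabarap, which coats autophagosomes, differed by 0.63 ± 0.17, the autophagy receptor Sqstm1 by 0.56 ± 0.13 and Atp6v1h, a subunit of the lysosomal proton pump, by 0.49 ± 0.13, with adjusted p of 0.187, 0.139 and 0.192.

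Hypoxia and glycolysis genes were high in D1 replicate 2 of both cultures. Pfkl, a phosphofructokinase of glycolysis, had signals of 23507, 30223 and 19196 in monolayer D2 and 25432, 32149 and 23288 in suspension D2, against 8887, 31354 and 9910.2 in monolayer D1 and 14136, 30629 and 11424 in suspension D1. Both D1 replicate 2 signals exceeded 5 of the 6 D2 signals, and the other 4 D1 samples were below all D2 samples. The difference was 0.71 ± 0.30 (adjusted p = 0.432) and 1.21 without D1 replicate 2 of both cultures. Slc2a3, a glucose transporter, differed by 0.42 and by 0.73 without those samples, while Vegfa, a hypoxia target that drives vessel growth, differed by 0.62 and by 0.80. Hif1a, the hypoxia-regulated factor itself, differed by 0.38 ± 0.13 (adjusted p = 0.297) and by 0.24 without them. Over the 27 members, 22 were above 0 with a median of 0.28, against 0.56 without D1 replicate 2 of both cultures. Within the wash runs the median was -0.35, 0.51 and 0.59, so its sign turned in the run that holds these samples.

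**Figure D3:**
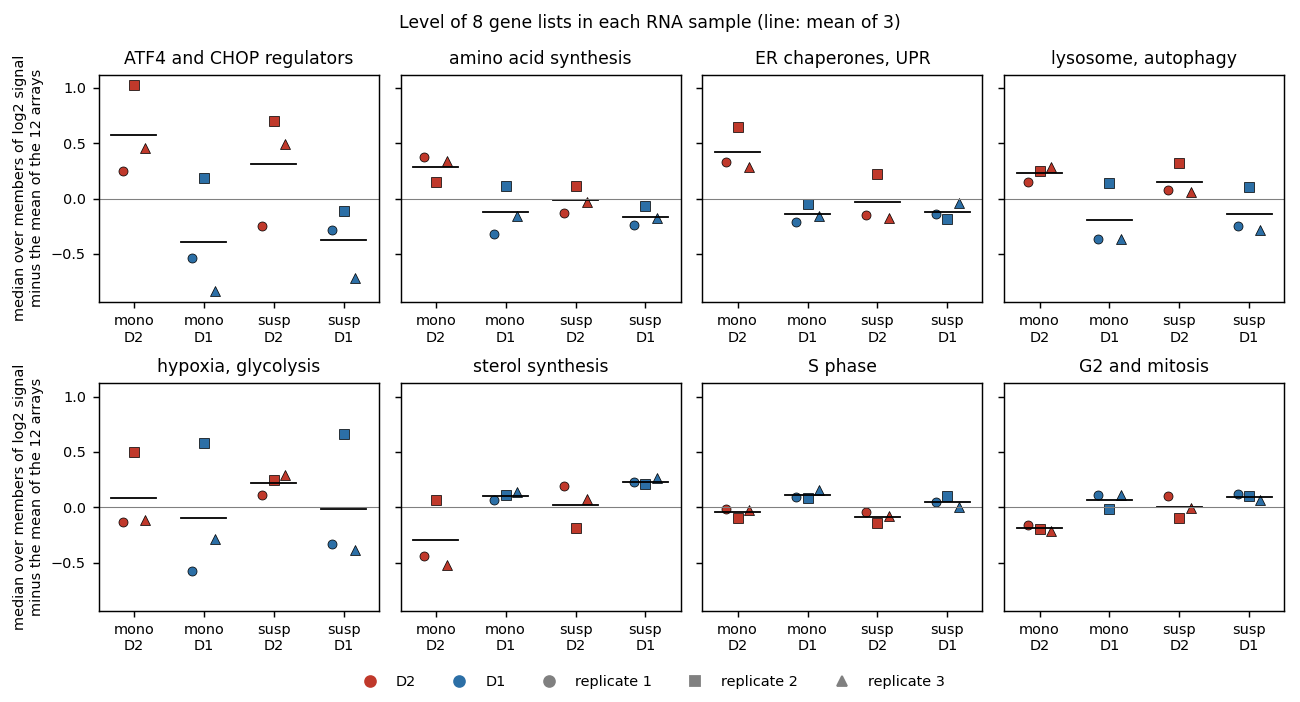
Level of 8 gene lists in each RNA sample: the median over the members of the log2 signal minus that gene's mean over the 12 arrays, by culture and stage; points are RNA samples, symbols give the replicate number and lines are means of 3. D1 replicate 2 (blue squares) is the highest of all samples for hypoxia and glycolysis, lies among the D2 samples for lysosome and autophagy, and lies with the other D1 samples for sterol synthesis and S phase.

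The metallothioneins Mt1 and Mt2, small proteins that bind zinc and copper, differed by more than the other genes named so far except Ddit3. Mt1, Mt2, Slc39a10, Impact, Apoe, Renbp, Phf10, Serinc3, Tmem102, Tubb6, E2f7 and Pclaf were chosen after their values were seen, because they passed with the wash block or had separate signals. Mt1 had signals of 8719, 6201 and 3047 in monolayer D2 and 17011, 17453 and 6534 in suspension D2, against 967.8, 3975 and 1993 in monolayer D1 and 1607, 6740.2 and 1278 in suspension D1. The stages overlapped through D1 replicate 2 alone: the other 4 D1 samples lay below every D2 sample. Mt1 differed by 1.93 ± 0.44 (adjusted p = 0.139) and Mt2 by 1.73 ± 0.32 (adjusted p = 0.12), and both passed with the wash block (adjusted p = 0.0487 and 0.0369). Without D1 replicate 2 of both cultures the differences were 2.55 for Mt1 and 2.08 for Mt2. Slc39a10, a zinc importer, was lower: its median was 12581 at D2 and 25325 at D1, a difference of -0.93 ± 0.15 (adjusted p = 0.0894), and it passed with the wash block (adjusted p = 0.0369).

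The factor that senses zinc binds a metal response element, searched here as TGCACNC or TGCGCNC. These short letters stood in 39.3% of all genes with a promoter, so a match says little. The searched stretch held 3 matches for Mt1 and 4 for Mt2, of which 1 and 2 lie in the bases printed. The stretches before the starts of Mt1 (chr8:94178939-94179088) and Mt2 (chr8:94172468-94172617), neighbours on the plus strand of the same chromosome, are printed with the matches in capitals.
Mt1: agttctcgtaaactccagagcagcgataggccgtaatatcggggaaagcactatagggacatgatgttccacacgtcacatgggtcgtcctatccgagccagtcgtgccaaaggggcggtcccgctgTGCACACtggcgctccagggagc
Mt2: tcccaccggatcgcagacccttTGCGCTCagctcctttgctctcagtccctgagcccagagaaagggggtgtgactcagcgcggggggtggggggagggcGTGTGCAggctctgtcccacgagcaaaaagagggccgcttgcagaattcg

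Several other genes were higher at D2. Impact, a regulator of the amino acid sensor GCN2, had signals of 8368, 11098 and 11367 in monolayer D2 and 7365, 11225 and 9275 in suspension D2, against 3041, 7114 and 3579.9 in monolayer D1 and 3576, 6964 and 3718 in suspension D1. The stages did not overlap, although D1 replicate 2 came close, and the difference was 1.14 ± 0.22 (adjusted p = 0.12), and 1.48 without D1 replicate 2 of both cultures. Apoe, a lipid carrier, differed by 1.10 ± 0.24, Renbp, an enzyme of amino sugar metabolism, by 1.10 ± 0.20, Phf10, a chromatin remodelling subunit, by 0.71 ± 0.12 and the membrane protein gene Serinc3 by 0.76 ± 0.15. Impact and these 4 genes passed with the wash block. Tmem102 did not pass with the block (adjusted p = 0.0577), but its signals ran from 3053 to 6655 at D2 and from 682.0 to 2678 at D1, without overlap, a difference of 1.48 ± 0.27.

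Genes lower at D2 included a tubulin and detoxification enzymes. Tubb6, a beta-tubulin, had signals of 1753, 2323 and 1061 in monolayer D2 and 1747, 1526 and 745.0 in suspension D2, against 4149, 2823 and 4397 in monolayer D1 and 3963, 5552 and 2878 in suspension D1. No D2 sample reached the lowest D1 sample, the difference was -1.43 ± 0.25 (adjusted p = 0.0954), and Tubb6 passed with the wash block (adjusted p = 0.0369). Gsta4, a glutathione transferase, ran from 5046 to 7188 at D2 and from 7628 to 11231 at D1, again without overlap, a difference of -0.67 ± 0.11 (adjusted p = 0.0894). Cbr3, a carbonyl reductase, had signals of 91.4, 83.0 and 138.2 in monolayer D2 and 1195, 507.1 and 755.0 in suspension D2, against 1252, 562.2 and 1034 in monolayer D1 and 1021, 824.8 and 1202 in suspension D1. Its difference of -1.76 ± 0.29 was -3.15 in monolayer and -0.38 in suspension. Gsta4 and Cbr3 passed with the wash block (adjusted p = 0.0454 and 0.0487), and they are the 2 of 20 measured NRF2 targets that did, where 0.0471% of all genes passed lower. Txnrd1, thioredoxin reductase, differed by -0.49 ± 0.13 (adjusted p = 0.193), and the median of the NRF2 list was -0.10.

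Growth and cell cycle genes had list medians below 0. Of 42 S phase genes, 34 were below 0 with a median of -0.14, and of 51 genes of G2 and mitosis, 40 were below 0 with a median of -0.20. The G2 and mitosis median was -0.24 in monolayer and -0.08 in suspension, and that of S phase -0.18 and -0.12. Ccne1, cyclin E1 of the G1 to S transition, had signals of 12167, 11536 and 10542 in monolayer D2 and 14264, 12690.4 and 10864 in suspension D2, against 42598, 13493 and 31586 in monolayer D1 and 40109, 21130.4 and 17531 in suspension D1. Monolayer D1 replicate 2 lay within the D2 range, and the difference was -1.09 ± 0.25 (adjusted p = 0.13), and -1.38 without D1 replicate 2 of both cultures. Dut, which clears dUTP, had a median of 2876 at D2 and 5099.7 at D1, differed by -0.77 ± 0.13 (adjusted p = 0.0894) and was the 1 of 42 S phase genes that passed with the wash block (adjusted p = 0.0487), where 0.0471% of all genes passed lower. Rrm2, a subunit of ribonucleotide reductase, differed by -0.93 ± 0.24 and thymidine kinase Tk1 by -0.76 ± 0.18, with adjusted p of 0.168 and 0.145. E2f7, an atypical E2F repressor, ran from 2684 to 3778 at D2 and from 4190.4 to 6537 at D1, and Pclaf, a partner of the replication clamp, from 6614 to 8902 at D2 and from 9152 to 12869.9 at D1. Both were separated without overlap, with differences of -0.72 and -0.50. Neither belongs to the lists above, and both were chosen for that separation, so it adds no support.

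Plk1, a mitotic kinase, differed by -0.48 ± 0.12, the kinesin Kif20a by -0.50 ± 0.12, Cdc20, an activator of the anaphase-promoting complex, by -0.34 ± 0.10 and the proliferation marker Mki67 by -0.36 ± 0.10, all with adjusted p above 0.05. None of the 51 passed with the wash block, where 0.0471% of all genes passed lower. Without monolayer D1 replicate 2, 4 passed lower, where 1.14% of all genes did, a count that gives no support for the reason stated above. The CHR element of mitotic promoters, TTTGAA, stood in 31 of 44 promoters of this list and in 14.6% of all genes. The median stayed below 0 within each wash run, at -0.11, -0.23 and -0.24, and the S phase median was -0.21, -0.09 and -0.15.

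The list of MYC targets and ribosome biogenesis genes had 23 of 30 members below 0 and a median of -0.18. Gart, of purine synthesis, ran from 5847 to 7859.5 at D2 and from 8227 to 12489 at D1, and Bop1, of ribosome assembly, from 3514 to 5289 at D2 and from 5426 to 6705 at D1, both without overlap. Gart differed by -0.55 ± 0.11 and Bop1 by -0.43 ± 0.11. Odc1, the first enzyme of polyamine synthesis, differed by -0.55 ± 0.14 and Rrp9, of ribosomal RNA processing, by -0.48 ± 0.13, and all 4 had an adjusted p above 0.05. In this list 3 of 30 genes (Gart, Bop1 and Ppat, an enzyme of purine synthesis) were separated lower, where 0.44% of all genes were, and none passed with the wash block. Cytosolic ribosomal protein genes were mostly higher, with 35 of 41 above 0 and a median of 0.12. This median fell to 0.02 with quantile normalization. It was -0.12 within station 1 first run, and 0.14 without D1 replicate 2 of both cultures.

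Sterol synthesis had the lowest median of the 44 lists, -0.23, with 18 of 20 members below 0. Nodal and TGF-beta targets, at -0.22, and BMP targets, at -0.20, were close. With quantile normalization BMP targets were lower, at -0.30 against -0.27 for sterol synthesis. Dhcr7, the last enzyme of cholesterol synthesis, had signals of 2268, 2754 and 1998 in monolayer D2 and 2983, 2584 and 2650.2 in suspension D2, against 2988, 3519 and 4097 in monolayer D1 and 4408, 4088 and 3756 in suspension D1. All D2 samples lay below all D1 samples, narrowly, and the difference was -0.59 ± 0.12 (adjusted p = 0.123). Hmgcs1, an early enzyme of the route, differed by -0.61 ± 0.19, Idi1, an isomerase, by -0.57 ± 0.18 and Nsdhl, a sterol dehydrogenase, by -0.57 ± 0.15, with adjusted p of 0.276, 0.25 and 0.168. The list median was 0.05, -0.37 and -0.41 within the wash runs, so its sign turned in the first of them. It was -0.24 without D1 replicate 2 of both cultures. In that first run, monolayer D2 replicate 2 (0.07) and suspension D2 replicate 1 (0.19) had the highest list level of their groups. D1 replicate 2 lay among the other D1 samples. The cause was not tested. Fatty acid synthesis genes had 15 of 18 members below 0 and a median of -0.13. The sterol regulatory element, searched as TCACNCCAC, stood in 1 of 16 sterol promoters and in 1.47% of all genes.

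**Figure D4:**
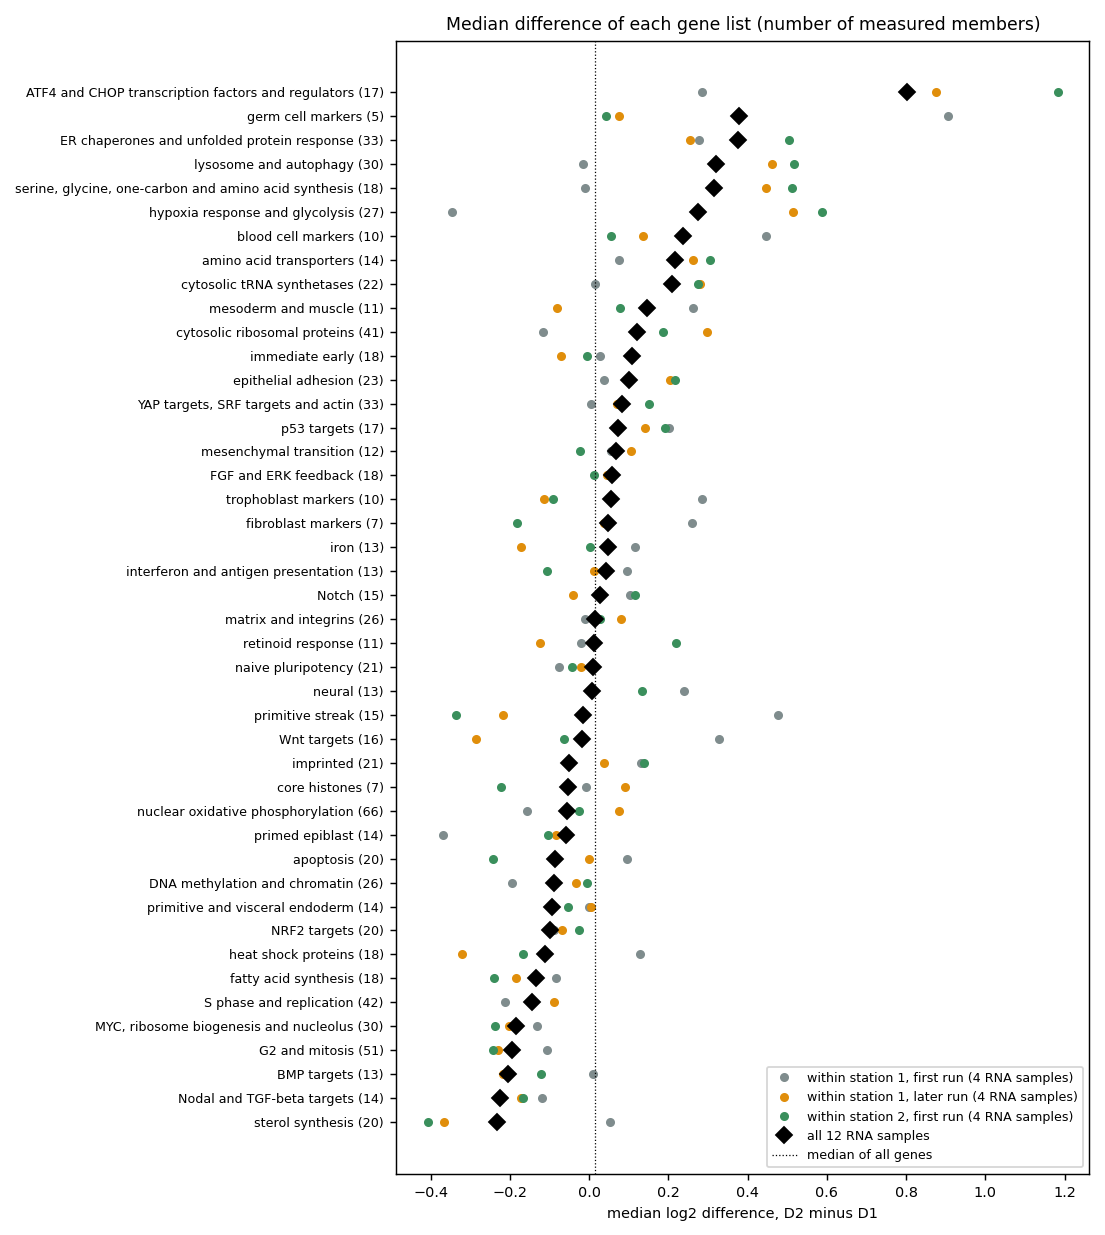
Median log2 difference, D2 minus D1, of each of the 44 gene lists with the number of measured members; black diamonds use all 12 RNA samples, coloured points the 4 RNA samples of 1 wash run, and the dotted line is the median of all genes. The station 1 first run holds D1 replicate 2 of both cultures, monolayer D2 replicate 2 and suspension D2 replicate 1. It gives the ATF4 and CHOP list its lowest median, 0.29, and turns the sign of the hypoxia and sterol lists. The sign of other lists turns in it too, among them amino acid synthesis (-0.01), lysosome and autophagy (-0.02) and cytosolic ribosomal proteins (-0.12).

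Among signalling genes, 2 growth factor ligands were lower at D2 and an ERK phosphatase was higher. Fgf15, a fibroblast growth factor, had signals of 844.8, 1056 and 1203 in monolayer D2 and 1092, 798.2 and 931.0 in suspension D2, against 1931, 1868 and 1769 in monolayer D1 and 1309, 2002 and 1685 in suspension D1. The stages did not overlap, the difference was -0.84 ± 0.15 (adjusted p = 0.0954), and it passed with the wash block (adjusted p = 0.0438). Fgf5, a growth factor of the primed epiblast, ran from 3223 to 8097 at D2 and from 5797 to 11059 at D1, a difference of -0.98 ± 0.20 (adjusted p = 0.123). Dusp4, a phosphatase that limits ERK, was higher in both cultures: 4014, 7137 and 3280.4 in monolayer D2 against 1763, 2720.3 and 1813 in monolayer D1, and 9579, 6588 and 8622 in suspension D2 against 4446, 4322 and 3229 in suspension D1. It differed by 1.09 ± 0.21 (adjusted p = 0.12) and passed with the wash block (adjusted p = 0.0369). Etv4, a target of ERK signalling, differed by -0.98 ± 0.35 (adjusted p = 0.324). The 18 FGF and ERK feedback genes had a median of 0.06, 12 of them above 0. Id1, a BMP target that blocks differentiation factors, ran from 614.2 to 1111 at D2 and from 1267 to 2156 at D1, without overlap, a difference of -0.89 ± 0.18 (adjusted p = 0.123), and 9 of 13 BMP targets were below 0. Among 14 Nodal and TGF-beta targets, 11 were below 0 with a median of -0.22.

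Pluripotency genes had differences on both sides of 0. Pou5f1, the core factor OCT4, averaged 34395 ± 4747 at D2 and 29405 ± 2333 at D1 (SD, n = 6 each), a difference of 0.22 ± 0.11 (adjusted p = 0.525). Sox2 differed by 0.01 ± 0.12 (adjusted p = 0.988), a value whose sign turned under several settings. Nanog had signals of 4593, 3709 and 4289 in monolayer D2 and 7856, 5059 and 5755 in suspension D2, against 8466, 6239 and 9095 in monolayer D1 and 6845, 7804 and 7073 in suspension D1. The monolayer stages were apart and the suspension stages overlapped, and the difference was -0.57 ± 0.13 (adjusted p = 0.139). Esrrb, a naive-state receptor, differed by 0.41 ± 0.18, and Tcl1, a cofactor of the kinase AKT, by 0.76 ± 0.23 (adjusted p = 0.235). All 6 D2 signals of Tcl1 lay above all D1 signals. It did not pass the stricter filter and entered the test through D2 arrays alone, so this separation carries no weight. Cdh1, E-cadherin, differed by 0.29 ± 0.19 (adjusted p = 0.654) and Actb, beta-actin, by -0.03 ± 0.11 (adjusted p = 0.952). The medians were 0.01 for 21 naive and general pluripotency genes, -0.06 for 14 primed epiblast genes and -0.02 for 15 primitive streak genes. They were 0.01 for 13 neural genes and 0.15 for 11 genes of mesoderm and muscle.

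Markers that define cell types were few on these chips. Of 5 measured germ cell markers, 4 were above 0 with a median of 0.38, and of 10 blood cell markers 6 were above 0 with a median of 0.24. The blood cell median was -0.09 in monolayer and 0.38 in suspension, and its sign turned, to -0.06, without D1 replicate 2 of both cultures. Within the wash runs the germ cell median was 0.91, 0.08 and 0.04, and neither list had a member that passed with the wash block. Their part in the other results was not tested. The summed signal of the represented defining fibroblast markers Col1a2 and Thy1 ran from 1399 to 2472 at D2 and from 1431 to 2298 at D1. That of the trophoblast markers Cdx2 and Krt8 ran from 1599 to 3325 at D2 and from 1263 to 3302 at D1, and the blood marker Gata1 from 280.5 to 759.9 at D2 and from 318.7 to 754.8 at D1. The summed naive pluripotency markers Klf2, Esrrb, Nr0b1 and Dppa3 ran from 7073 to 8689 at D2 and from 5323 to 7464 at D1, with 4 of 4 differences above 0. The summed primed epiblast markers Fgf5, Otx2, Dnmt3b and Lef1 ran from 30671 to 39594 at D2 and from 38674 to 48024 at D1, with 1 of 4 above 0. The fuller lists stood on both sides of 0. The longer pluripotency list also holds general pluripotency and Nodal pathway genes, such as Pou5f1, Sox2 and Nodal, so it does not measure naive genes alone. Of its members, 12 of 21 were above 0, with a median of 0.01, and of primed epiblast genes 6 of 14, with a median of -0.06. The ranges of these 2 sums and of the other 7 cell types checked overlapped between stages. Detection calls were not used, so a low signal cannot be marked as absent.

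The stage difference itself was compared between the cultures. No probe set passed for suspension minus monolayer (0 of 26516, 0%, lowest adjusted p 0.84 in limma), 951 did at an unadjusted p under 0.05, and the count was 0 under every alternative run. Across the 12727 genes the differences in monolayer and suspension correlated with Pearson's r of 0.167 and Spearman's rho of 0.22, a description over genes that share chips and wash runs and are not independent. The 5 genes of lowest p were 4930542N06Rik, Cbr3, Galnt6, Plekhg5 and Zfp24. Galnt6, a mucin-type glycosyltransferase, had signals of 1548, 1184 and 1044 in monolayer D2 against 651.6, 431.6 and 405.9 in monolayer D1, and of 1734, 1709 and 1738 in suspension D2 against 3161, 3192 and 2813 in suspension D1. It was higher at D2 in monolayer and lower in suspension, and its mean difference was 0.27 ± 0.24. Zfp24, a zinc finger factor, differed by -0.72 in monolayer and 1.49 in suspension, and 4930542N06Rik by -2.28 and 0.56. Plekhg5, an exchange factor for RhoA, differed by 1.83 in monolayer and 0.32 in suspension and passed for the mean of both with the wash block (adjusted p = 0.0461). The adjusted interaction p of all 5 was 0.84 or above.

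**Figure D5:**
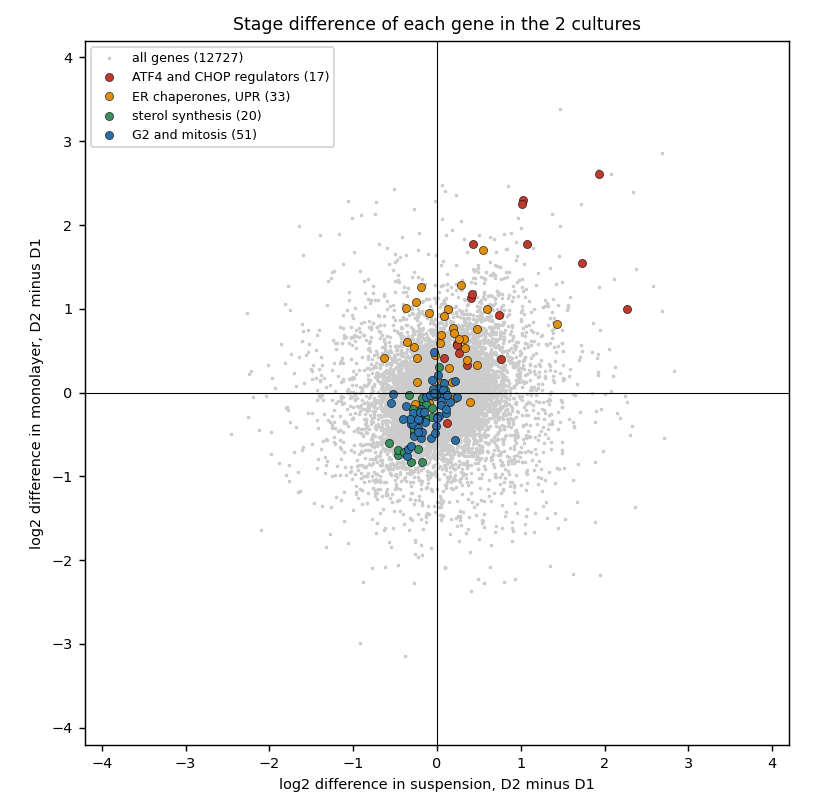
Log2 difference D2 minus D1 of each gene in monolayer (vertical) and in suspension (horizontal); grey points are all 12727 genes and coloured points 4 gene lists. ATF4 and CHOP regulators lie mostly toward the upper right, and sterol genes mostly toward the lower left.

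Different probe sets of a gene did not always give the same value. Of the 26 probe sets that passed with the wash block, 7 belonged to genes represented by a brighter probe set that did not pass. For Sulf2, which edits heparan sulfate, the passing probe set differed by -1.76 and the brighter one by 0.20. For Hnrnpab, an RNA-binding protein, the values were 0.67 and -0.25, and for Khsrp, a splicing and decay factor, -0.69 and -0.03. Those of Ino80e were -1.11 and -0.31, and those of the desaturase Fads2 -0.86 and -0.10. Ghitm gave 0.81 and 0.77 and Rbm39 0.95 and 0.84, so these kept their direction.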

How the data were processed

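RNA from 12 P19 samples (6 D2, 6 D1) was read on a MOE430A and a MOE430B chip each. The deposited intensities are linear MAS5 signals (the program is named in the submitters' processing notes), and the authors' scaling left a 2% trimmed mean of 1501 on each MOE430A and 1500 on each MOE430B array. Detection calls were not used, and the number of arrays limits the precision. Here log2 signals, with no offset, were fitted chip by chip with limma 3.58.1 (R 4.3.3; lmFit, then eBayes with a variance trend), with 1 mean per group. Probe sets needed a signal above the chip's median on at least 3 of 12 arrays. Adjusted p-values are Benjamini-Hochberg values over both chips, two-sided, with a threshold of 0.05. "With the wash run as a block" adds the wash run, grouped here from the station and clock time in the array files' headers, to that fit. Control probe sets had exact permutation tests of stage labels within cultures. Symbols came from the platform annotation: 35067 probe sets had 1, 936 several and 9262 none.

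Named genes are up to 4 of each of 44 lists by lowest adjusted p, 5 for the difference between cultures and a fixed set; the rule for called genes named none. Genes and lists were chosen with earlier results of these data known. Promoters came from RefSeq (GRCm38.p6). The fit was tested on simulated data. Alternatives are given in the closing section.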

Additional observations from a re-analysis of the deposited data

How the results depend on the processing

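The count of probe sets that passed for D2 against D1 was 0 in the limma fit described and depended on the samples and the error model. It was 26 with the wash run as a block, 460 with array weights, and between 0 and 509 when 1 sample was left out, with 509 without monolayer D1 replicate 2. Without D1 replicate 2 of both cultures, chosen after seeing the data, it was 882. The cause was not tested. Same-numbered D2 and D1 samples of a culture deviated together with correlations between 0.0923 and 0.305 on MOE430A and between 0.00797 and 0.117 on MOE430B. Not every one was over 0.1, so the samples are taken to share only a number, a rule applied after the count with the block was known. As a hint from the data, not the design, 12 of 12 samples on MOE430A and 10 of 12 on MOE430B correlated best with their own number at the other stage. A fit with the replicate block gave 545, of which 299 were higher at D2. The test between cultures gave 0 under every alternative run. Probe sets with separate signals numbered 79 higher and 107 lower, and between 95 and 271 higher and 121 and 387 lower when 1 sample was left out, where fewer samples have to be separated. Leaving out monolayer D1 replicate 2 gave the highest of both, suspension D2 replicate 1 gave 201 and 204, and suspension D1 replicate 2 gave 158 and 177. The count of higher ones lay between 119 and 131 without monolayer D1 replicate 1, monolayer D2 replicate 1 or suspension D2 replicate 3. The B1 difference was -1.49 on MOE430A and -1.56 on MOE430B without the later wash run, each with an exact p of 0.0556, the smallest that design allows. The beta-actin ratio on MOE430B lay between -0.186 and -0.114 with 1 sample left out, with an exact p between 0.025 and 0.135.

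Of 2148 values of the named genes under alternatives, 18 reversed, all in genes near 0 or with disagreeing probe sets. Sox2 was -0.0623 with median centring and -0.0284 without D1 replicate 2 of both cultures. It lay between -0.0595 and 0.0860 with 1 sample left out, and was -0.0595 without monolayer D1 replicate 2, -0.0152 without suspension D1 replicate 3, -0.00886 without monolayer D2 replicate 2 and -0.0361 without suspension D2 replicate 2. Actb was 0.00476 with array weights, between -0.0699 and 0.0365 with 1 sample left out, 0.0423 without D1 replicate 2 of both cultures and 0.0255 as the median over its probe sets. Khsrp lay between -0.0875 and 0.0416 with 1 sample left out and was 0.0422 without D1 replicate 2 of both cultures. Fads2 lay between -0.199 and 0.0213 with 1 sample left out. As medians over probe sets, Hspa5 was 0.35 and Sulf2 -0.78. Of the 44 list medians, 28 kept their sign under every alternative.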

Other observations

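Probe sets with separate signals split unevenly by annotation. Of 21262 tested probe sets with 1 gene symbol, 76 were higher and 86 lower in every D2 sample than in every D1 sample. Of 5254 with no symbol or several, 3 were higher and 21 lower. The median log2 difference was 0.02 in the first set and -0.02 in the second. The uneven split was noticed in these data and was not tested.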
